A study of Mus musculus with 6 samples.

Results

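The 10 adipocyte and lipid droplet genes described here are Adipoq, Fabp4, Pparg, Cebpa, Plin1, Plin2, Plin4, Cidec, Lipe and Cfd, found by their symbols among the 24346 genes of the deposited tables. They were followed in condylar cartilage, the growth cartilage on the condyle of the lower jaw, in 3 mutant libraries and 3 control libraries of bulk RNA. By the series title, the mutant mice lacked the Indian hedgehog gene Ihh in craniofacial neural crest cells, and the control mice are labelled fl/fl, the usual notation for a floxed gene. The series text names Cre and Tomato as further checks of the mutants. The sources used here do not name the driver of Cre, the age or sex of the mice, or whether each library came from its own animal, so p-values measure the spread between these libraries, which may be partly technical.

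White adipocytes store triglyceride in 1 large droplet, and many other cells, skeletal muscle fibres among them, hold small droplets that feed oxidation. The nuclear receptor Pparg and the transcription factor Cebpa drive fat cell differentiation. Perilipins coat the droplet and gate access of lipases such as the hormone-sensitive lipase Lipe, and adipocytes secrete the hormone adiponectin (Adipoq) and the complement protease adipsin (Cfd). Fabp4 carries fatty acids in adipocytes and is also made by capillary endothelium and macrophages.

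Values are FPKM, fragments scaled to transcript length and library depth. The targeted gene Ihh measured 2.18, 2.33 and 2.66 FPKM in mutants 1, 2 and 3, against 3.73, 2.51 and 3.74 FPKM in controls 1, 2 and 3, and did not pass the test, while the hedgehog target Gli1 averaged 0.516 FPKM in mutants and 8.70 FPKM in controls and was called lower (limma adjusted p = 0.0152). The groups also differed in other ways. Xist, which marks female tissue, was at 0.577 to 0.984 FPKM in the 3 mutants and at 29.5, 29.2 and 0.608 FPKM in controls 1, 2 and 3. The Y-linked gene Eif2s3y was at 47.3, 47.4 and 38.4 FPKM in mutants 1, 2 and 3. In controls 1, 2 and 3 it was at 0.89, 0 and 42.1 FPKM. By both genes controls 1 and 2 read as female, and control 3 and the mutants as male. The 20 skeletal muscle markers summed to 18319 to 34523 FPKM in mutants and 4190 to 10177 FPKM in controls, with no marker at 0 in any library. The 15 endothelial markers summed to 385 to 476 FPKM in mutants and 148 to 239 FPKM in controls, again with no marker at 0, and the 10 chondrocyte markers to 178 to 223 FPKM in mutants and 424 to 482 FPKM in controls. The part of sex, of muscle and of endothelium in the results below was not tested beyond the values given beside them. In bulk RNA, more cells of a type and more RNA per cell cannot be told apart. A background level was read from 1120 olfactory receptor genes, taken to be silent in cartilage: their 90th percentile, called the background level from here on, lay between 6.49 and 8.69 FPKM.

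The annotated 250 bases before the start of 4 genes are shown because these genes gave the contrast described below: Plin4 was the only gene of the 10 to be called, Plin1 and Plin2 belong to the same family, and Adipoq is the hormone of fat cells. Sequences are from RefSeq (GRCm38.p6, the same assembly as mm10), 5′ to 3′ on the strand of the gene, and capitals mark matches to the motifs named after them. They lie at chr17:56109783-56110032 for Plin4 (minus strand), chr4:86670060-86670309 for Plin2 (minus strand), chr7:79732777-79733026 for Plin1 (minus strand) and chr16:23146286-23146535 for Adipoq (plus strand). These are RefSeq starts. GENCODE M21, used for the gene positions, ends Plin1 at 79732903, Plin4 at 56109803 and Plin2 at 86670060. Those windows thus reach into the GENCODE genes, and the Plin1 match nearer the start lies inside.
Plin4: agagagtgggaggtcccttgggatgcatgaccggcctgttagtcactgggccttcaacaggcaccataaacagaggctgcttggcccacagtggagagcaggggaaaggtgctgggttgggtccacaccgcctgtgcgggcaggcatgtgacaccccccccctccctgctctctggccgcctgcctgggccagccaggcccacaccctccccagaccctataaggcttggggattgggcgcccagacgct
Plin2: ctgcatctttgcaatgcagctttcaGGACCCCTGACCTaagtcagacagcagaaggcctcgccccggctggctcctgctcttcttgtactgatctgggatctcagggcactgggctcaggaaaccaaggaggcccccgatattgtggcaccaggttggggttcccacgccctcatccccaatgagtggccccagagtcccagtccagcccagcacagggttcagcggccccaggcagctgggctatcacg
Plin1: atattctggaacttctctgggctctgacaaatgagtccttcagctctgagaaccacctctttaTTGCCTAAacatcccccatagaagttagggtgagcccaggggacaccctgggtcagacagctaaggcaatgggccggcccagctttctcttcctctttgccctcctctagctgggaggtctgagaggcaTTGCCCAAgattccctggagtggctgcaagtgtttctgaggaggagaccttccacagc
Adipoq: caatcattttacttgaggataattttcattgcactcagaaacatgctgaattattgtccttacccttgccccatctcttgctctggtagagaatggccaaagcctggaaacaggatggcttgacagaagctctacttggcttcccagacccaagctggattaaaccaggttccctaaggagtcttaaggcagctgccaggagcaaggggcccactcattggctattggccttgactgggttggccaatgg
Motifs were searched on both strands in 13 such windows of 9 of the 10 genes. The PPAR response element AGGTCANAGGTCA, allowing 2 of its fixed letters to differ, matched Plin2 (GGACCCCTGACCT on the reverse strand, beginning 225 bases before the start) and no window of the other 8 genes, and it matched 3.24% of 32851 windows of all genes. The C/EBP pattern TTGCNNAA matched windows of Plin1, Pparg and Cidec and 9.56% of all windows. The TATA box TATAAA matched windows of Cebpa and Pparg and 12.4% of all windows. The windows of Plin4 and Adipoq held none of the 3 patterns, which says only that these letters are not in these 250 bases.

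Mutant and control cartilage were compared to see how transcripts of fat storage differ after loss of Ihh. Among the 10 genes, Plin4 rose in mutant cartilage, and the secreted and droplet proteins that are mostly restricted to fat cells (Adipoq, Cfd, Plin1 and Cidec) varied within both groups and did not separate them. A gene is said to have risen or fallen, or to be called, where the Benjamini-Hochberg adjusted p of a limma fit over all genes tested is below 0.05. Cebpa, at 0 to 1.72 FPKM, did not reach the minimum of 1 FPKM in 3 libraries and was not tested. Of the 9 genes tested, 1 was higher and 0 were lower by limma, and 2 had an unadjusted p below 0.05. Of all 18715 genes tested, 0.775% were called higher and 0.465% lower, and 14.1% had an unadjusted p below 0.05. The median log2 fold change of the 9 genes was 0.89 on the scale of log2(FPKM + 1), and that of all genes tested was 0.00085.

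**Figure D1:**
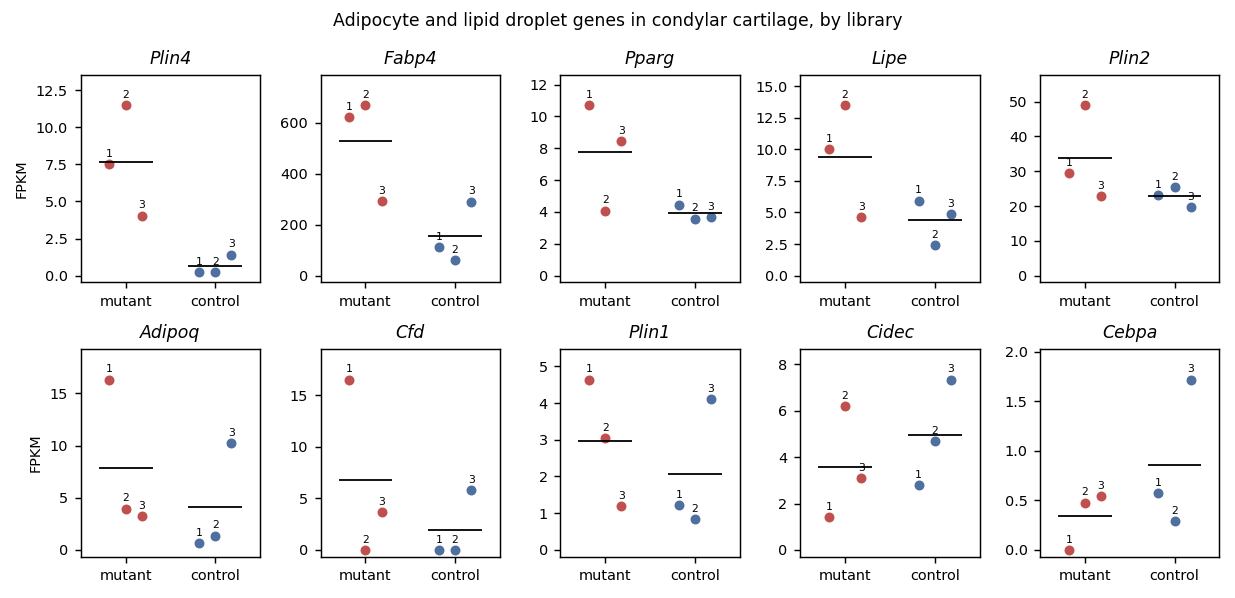
Each panel gives the FPKM of 1 gene (vertical axis, linear) in the 3 mutant and 3 control libraries, numbered by replicate, with the group mean as a line. Plin4 and Fabp4 have every mutant above every control, Fabp4 by a narrow margin (292.7 against 291 FPKM), and in Adipoq and Cfd mutant 1 and control 3 are the high libraries.

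Plin4 encodes a perilipin that coats small and newly formed droplets and is made in fat, heart and skeletal muscle of mice. It is a minus-strand gene of chromosome 17, between 56100591 and 56109803 in mm10. Plin4 measured 7.54, 11.5 and 4.04 FPKM in mutants 1, 2 and 3, against 0.251, 0.252 and 1.41 FPKM in controls 1, 2 and 3. All mutants were above all controls, and control 3 was the highest control. The means were 7.69 ± 3.72 FPKM in mutants and 0.639 ± 0.671 FPKM in controls (SD, n = 3 each), a ratio of means of 12.04, with a log2 fold change of 2.38 ± 0.44 (SE; limma adjusted p = 0.0424). In 5 of the 6 libraries, all but mutant 2, Plin4 lay under the background level. The spacing of the values gave 60, 110 and 34 fragments in mutants and 2, 2 and 15 in controls, the smallest whole numbers that match the libraries to 0.02 of a fragment or better. Scaled for depth, these numbers stood in a ratio of 10.97 (exact 95% interval 6.85 to 18.6, for counting error alone). The order of Plin4 over the libraries followed that of the summed muscle markers, which was also that of the summed endothelial markers. Controls 1 and 2 were the exception, at 0.251 and 0.252 FPKM, and did not differ beyond 1 fragment. With the mean of the muscle markers as a covariate the log2 fold change of Plin4 was 0.60 ± 0.85 (adjusted p = 0.95). Over all genes that covariate gave 3 calls, against 232 in the main fit. The call was also lost without mutant 1, mutant 2, control 1 or control 2 (limma adjusted p of 0.15, 0.141, 0.132 and 0.125). The log2 fold changes there were 2.35, 2.07, 2.23 and 2.23. Against control 3 alone, the only control with low Xist, the log2 fold change was 1.75, with that lone library assumed to vary as the mutants did.

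Plin2 and Plin1, the other perilipins among the 10 genes, were not called. Plin2, which coats droplets in most cells, measured 29.5, 49.0 and 22.8 FPKM in mutants and 23.2, 25.4 and 19.6 FPKM in controls. Mutants 1 and 2 were above all controls, mutant 2 the most, and mutant 3 was within the control range. The log2 fold change of 0.49 ± 0.28 did not pass (limma adjusted p = 0.519). Plin1, the coat protein of the adipocyte droplet, measured 4.64, 3.05 and 1.20 FPKM in mutants and 1.22, 0.848 and 4.11 FPKM in controls. Control 3 was within the range of mutants 1 and 2, mutant 3 was within the range of controls 1 and 2, and the log2 fold change was 0.42 ± 0.50 (adjusted p = 0.803). Plin1 was under the background level in all 6 libraries and gave no whole fragments within the tolerance.

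Fabp4 was the most abundant of the 10 genes, at 621, 669 and 292.7 FPKM in mutants 1, 2 and 3 and 112, 61.5 and 291 FPKM in controls 1, 2 and 3. Every mutant was above every control, but mutant 3 and control 3 were nearly level. The smallest whole numbers of fragments were 386, 500 and 192 in mutants and 70, 38 and 241 in controls. Its mean was 528 ± 205 FPKM in mutants and 155 ± 120 FPKM in controls (SD, n = 3 each), and the log2 fold change of 1.96 ± 0.53 did not pass over all genes (limma adjusted p = 0.131). Without control 3 it was called, with a log2 fold change of 2.56 and an adjusted p of 0.0396. Against control 3 alone the log2 fold change of Fabp4 was 0.77 (adjusted p = 0.718), and with Xist as a covariate it was 0.83 (adjusted p = 0.649). With Plin4, Fabp4 was 1 of 2 members whose groups did not overlap with mutants higher, a pattern found in 9.77% of all genes tested. No member had all mutants below all controls, against 9.4% of all genes tested. The 6 libraries stood in the same order in Fabp4, in the summed endothelial markers and in the summed muscle markers. That order does not tell endothelium and muscle apart. Mutant 3 was close to mutant 1 in the endothelial sum (385 and 388 FPKM) but not in Fabp4. With the muscle covariate the log2 fold change of Fabp4 was -0.93 (adjusted p = 0.89).
Pparg, the receptor that commands fat cell differentiation, measured 10.7, 4.08 and 8.45 FPKM in mutants and 4.46, 3.59 and 3.67 FPKM in controls. Mutants 1 and 3 were above all controls and mutant 2 was not, and the log2 fold change was 0.75 ± 0.34 (limma adjusted p = 0.366). These values rested on 24, 11 and 20 fragments in mutants and 10, 8 and 11 in controls. Cebpa, its partner, was at 0, 0.477 and 0.543 FPKM in mutants and 0.573, 0.288 and 1.72 FPKM in controls, on 4 fragments in all mutants and 11 in all controls, 8 of them in control 3. The depth-scaled ratio of Cebpa was 0.372 (exact 95% interval 0.0863 to 1.25, for counting error alone), so a difference was not detectable at this depth. The 0 in mutant 1 allows up to 3 fragments, or 0.861 FPKM.

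Lipe, the lipase that is activated by protein kinase A, measured 10.005, 13.5 and 4.61 FPKM in mutants and 5.94, 2.45 and 4.87 FPKM in controls. Mutants 1 and 2 were above the controls and mutant 3 was within their range (log2 fold change 0.89 ± 0.41, limma adjusted p = 0.375). Across the libraries Lipe was high in mutants 1 and 2, as the muscle markers were. In mutant 3 it lay below controls 1 and 3, where the summed muscle markers did not. With the muscle covariate its log2 fold change was -1.21 ± 0.61 (limma adjusted p = 0.815). The muscle sums also separate the groups, so that fit cannot set group and muscle well apart, and the part of muscle was not tested. Of the exon bases of Lipe, 918 overlap an annotated gene on the opposite strand, 4732471J01Rik, and libraries of this kind do not keep the strand.

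Adipoq, the adiponectin gene on chromosome 16, measured 16.3, 3.96 and 3.22 FPKM in mutants 1, 2 and 3 and 0.679, 1.37 and 10.2 FPKM in controls 1, 2 and 3. Mutant 1 and control 3 were the high libraries, and control 3 exceeded 2 of the 3 mutants. These values corresponded to 24, 7 and 5 fragments in mutants and 1, 2 and 20 in controls, and the log2 fold change of 1.01 ± 0.75 did not pass (limma adjusted p = 0.65). Cfd, adipsin, measured 16.5, 0 and 3.69 FPKM in mutants and 0, 0 and 5.84 FPKM in controls. Again mutant 1 and control 3 were highest, on 17 and 8 fragments, and 3 libraries had none (log2 fold change 1.20 ± 1.07, adjusted p = 0.729). A count of 0 allows up to 3 fragments, or 2.43 FPKM in mutant 2, 2.92 FPKM in control 1 and 2.94 FPKM in control 2. Cidec, a protein that fuses droplets in adipocytes, measured 1.40, 6.20 and 3.09 FPKM in mutants and 2.79, 4.69 and 7.35 FPKM in controls, and was the only one of the 9 tested genes with a negative log2 fold change (-0.45 ± 0.46, adjusted p = 0.759). Control 3 was highest here as well, while mutant 1, the highest in Adipoq and Cfd, was lowest in Cidec. In depth, Cidec rested on 3, 16 and 7 fragments in mutants and 6, 10 and 21 in controls.

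Adipoq, Cfd, Plin1 and Cidec together summed to 38.9, 13.2 and 11.2 FPKM in mutants and 4.70, 6.90 and 27.5 FPKM in controls. The groups overlapped because control 3 was above mutants 2 and 3. Controls 1 and 2, the libraries with high Xist, were the lowest of the 6. Against control 3 alone the log2 fold changes of Adipoq, Cfd and Plin1 were -0.65, -0.65 and -0.47, the opposite sign to those against all 3 controls, and none passed. Defining markers of adipocytes were thus detected at low levels: Adipoq was above the background level in 2 libraries (mutant 1 and control 3), Cfd in mutant 1, Cidec in control 3 and Plin1 in none. Plin2, Plin4, Fabp4 and Lipe, which other cell types also make, were highest in mutants 1 and 2. Below those their orders differed. In Lipe mutant 3 lay under controls 1 and 3, and in Fabp4 control 3 was nearly level with mutant 3.

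**Figure D2:**
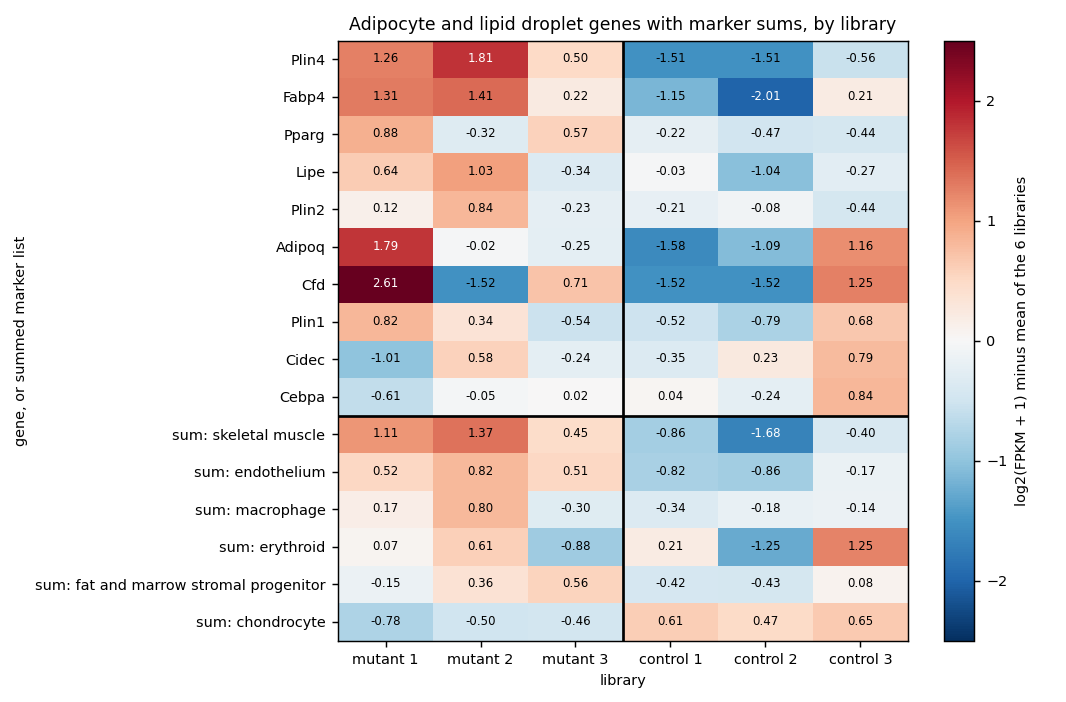
Rows are the 10 genes and, under the line, the summed FPKM of 6 marker lists, columns are the libraries, and colours and numbers give log2(FPKM + 1) minus the mean of the 6 libraries. Plin4 and Fabp4 are highest in mutants 1 and 2, as the skeletal muscle and endothelium sums are. Fabp4 is nearly level in mutant 3 (0.22) and control 3 (0.21), where those sums differ in sign. Adipoq and Cfd are high in mutant 1 and control 3.

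**Figure D3:**
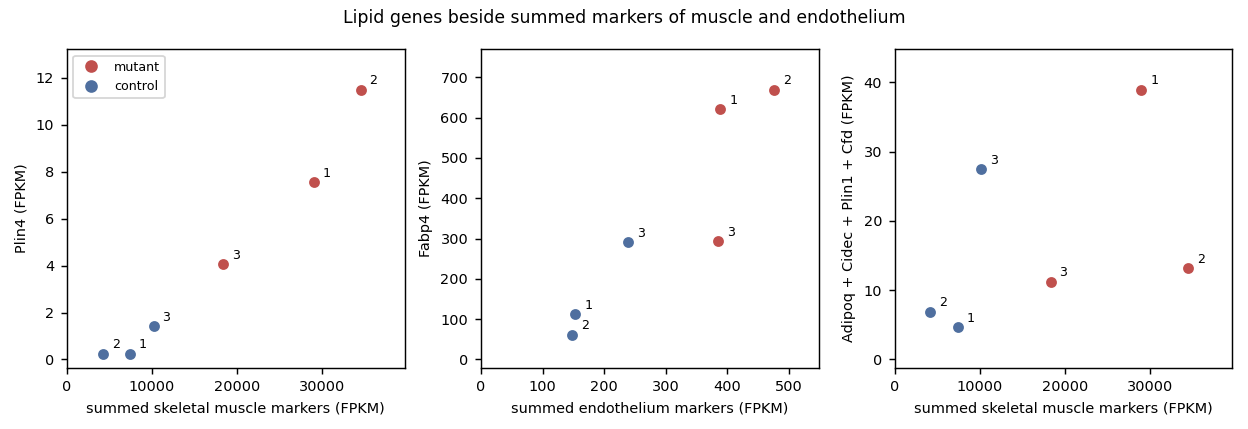
Each point is a library, numbered by replicate, with summed muscle or endothelium markers in FPKM on the horizontal axis and Plin4, Fabp4 or the sum of Adipoq, Cidec, Plin1 and Cfd in FPKM on the vertical axis. Plin4 increases with the muscle sum over the libraries, apart from controls 1 and 2, which are level. The sum of the fat-restricted genes does not, being highest in mutant 1 and control 3. The muscle and endothelium sums rank the libraries alike, so neither gene is tied to 1 of them by its order.

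Genes whose pattern over the 6 libraries was most like the mean profile of Adipoq, Cidec, Plin1 and Cfd were ranked by the root mean square difference of centred log2(FPKM + 1) values among 10266 genes with a mean of at least 5 FPKM. The nearest was Myog, the myogenic factor of differentiating muscle, at a difference of 0.13 log2 units, against 0.78 for a gene that does not vary. Myog measured 24.7, 10.5 and 11.4 FPKM in mutants and 4.92, 6.06 and 18.5 FPKM in controls. Next came Fam174b, Cmbl, Clec3b, the olfactory receptor Olfr1208, Cbr4, Smco4, Il2rg, the olfactory receptor Olfr1385 and Upp1, at 0.30 to 0.38. None of the 10 was called, and none is a gene of the wider fat lists used here. The adipocyte and lipid droplet genes themselves, predicted or unnamed genes and genes of lower mean had been left out beforehand. The absence of fat genes was thus partly set in advance. The profile also averages genes that differ: in mutant 1 it was 1.05, and Cidec was -1.01.

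A wider set of 78 lipid genes in 7 lists, of which 75 were tested, placed the 10 genes in their pathway. Over the 7 lists 9 genes were higher and 3 lower in mutants by limma, where 0.775% of all genes tested were called higher and 0.465% lower. The 9 came from droplet coating, triglyceride synthesis, lipolysis, the adipocyte surface and the adipogenic factors, and the 3 from fatty acid synthesis.

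**Figure D4:**
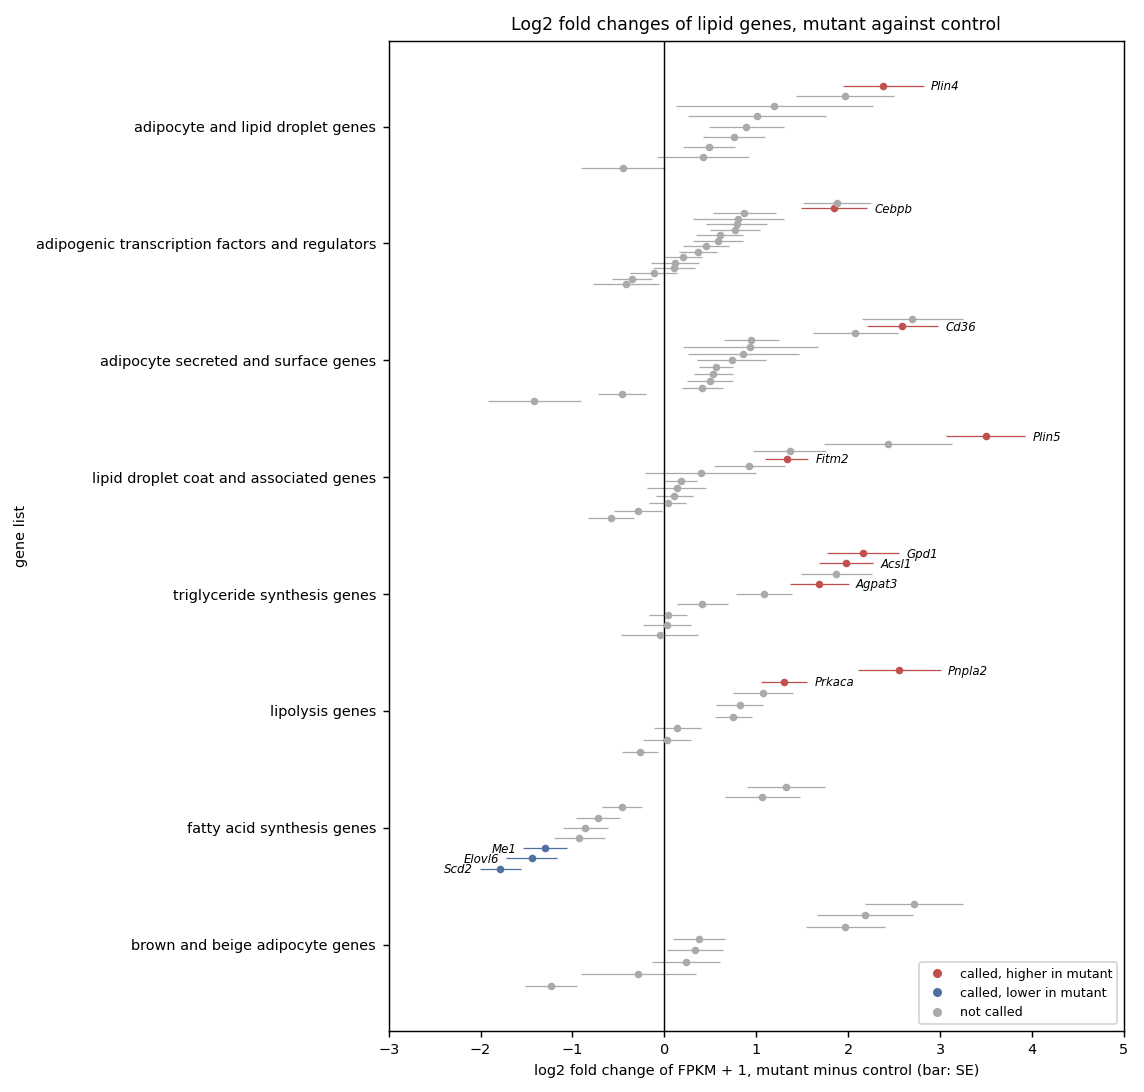
Points are log2 fold changes of FPKM + 1, mutant minus control, with bars of 1 SE, for the tested adipocyte and lipid droplet genes and the 7 wider lists, and called genes are coloured and named. Plin5 is the farthest to the right at 3.50, and Me1, Elovl6 and Scd2 of the fatty acid synthesis list are the called genes to the left of 0.

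Of 12 droplet genes 2 rose and 0 fell, and the median log2 fold change was 0.28. Plin5, the perilipin that ties droplets to mitochondria in heart, muscle and brown fat and lies next to Plin4 on chromosome 17 (56111601 to 56117596), measured 27.1, 39.2 and 13.6 FPKM in mutants and 1.61, 0.405 and 2.12 FPKM in controls. Its log2 fold change was 3.50 ± 0.43 (limma adjusted p = 0.0157). Fitm2, which helps droplets to form in the endoplasmic reticulum, measured 16.1 ± 2.21 FPKM in mutants and 5.83 ± 1.28 FPKM in controls (SD, n = 3 each; adjusted p = 0.0374).

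Of 9 tested triglyceride synthesis genes 3 rose and 0 fell (median log2 fold change 1.09). Acsl1, which activates long-chain fatty acids, averaged 37.1 ± 13.6 FPKM in mutants and 8.26 ± 1.29 FPKM in controls (limma adjusted p = 0.025). Gpd1, which makes the glycerol 3-phosphate backbone, averaged 21.2 ± 6.06 FPKM in mutants and 4.35 ± 3.11 FPKM in controls (adjusted p = 0.0413). Agpat3, an acyltransferase, averaged 29.6 ± 4.39 FPKM in mutants and 9.08 ± 4.54 FPKM in controls (adjusted p = 0.0462). Mogat1 was at 0 in all 6 libraries.

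Of 8 lipolysis genes 2 rose and 0 fell (median log2 fold change 0.79). Pnpla2, the first lipase of triglyceride breakdown, measured 45.4, 91.4 and 21.5 FPKM in mutants and 7.74, 4.90 and 8.18 FPKM in controls, with all mutants above all controls (log2 fold change 2.56 ± 0.45, limma adjusted p = 0.0377). Prkaca, the catalytic subunit of protein kinase A, which phosphorylates perilipin 1 and Lipe, averaged 73.3 ± 15.5 FPKM in mutants and 29.3 ± 8.28 FPKM in controls (adjusted p = 0.0486).

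Of 13 tested secreted and surface genes of adipocytes 1 rose and 0 fell (median log2 fold change 0.73). Cd36, a fatty acid transporter of fat, muscle and capillaries, measured 104, 175 and 59.5 FPKM in mutants and 17.9, 10.8 and 22.0 FPKM in controls (log2 fold change 2.59 ± 0.39, limma adjusted p = 0.025). Angptl4, an inhibitor of lipoprotein lipase and a PPAR target, averaged 70.6 ± 45.4 FPKM in mutants and 9.24 ± 4.98 FPKM in controls and did not pass (adjusted p = 0.0586). Of 16 adipogenic factors 1 rose and 0 fell (median 0.52): Cebpb, an early adipogenic factor that also acts in inflammation, averaged 34.6 ± 18.5 FPKM in mutants and 8.21 ± 2.17 FPKM in controls (adjusted p = 0.0496). Nr1h3, the oxysterol receptor, averaged 4.16 ± 0.843 FPKM in mutants and 0.437 ± 0.437 FPKM in controls and did not pass (adjusted p = 0.0521). It lay under the background level in all 6 libraries.

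Of 9 fatty acid synthesis genes 0 rose and 3 fell (median log2 fold change -0.86). Scd2, a desaturase, averaged 17.5 ± 1.11 FPKM in mutants and 64.2 ± 18.2 FPKM in controls (log2 fold change -1.78 ± 0.23, limma adjusted p = 0.0157). Me1, which supplies NADPH, averaged 15.3 ± 4.15 FPKM in mutants and 38.3 ± 5.70 FPKM in controls (adjusted p = 0.0426). The elongase Elovl6 averaged 3.02 ± 0.87 FPKM in mutants and 9.94 ± 2.16 FPKM in controls (adjusted p = 0.0486), and it lay under the background level in the 3 mutants. In the same libraries the summed muscle markers were higher and the summed chondrocyte markers lower in mutants. Within those lists Myh7 of muscle (log2 fold change -0.69) and Comp of cartilage (1.56) went the other way, and neither was called.

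Most of these calls were lost without mutant 1, mutant 2, control 1 or control 2, as most calls over all genes were. All of their log2 fold changes kept their sign in those fits. Plin5 was at 3.16 to 3.60 (3.50 in the main fit) and Cebpb at 1.46 to 2.18 (1.85 in the main fit). Those fits hold fewer libraries, so a lost call does not show that it rested on the library left out. Of all genes tested, 232 were called in the main fit. Without mutant 1, mutant 2 or mutant 3 they were 19, 57 and 414. Without control 1, control 2 or control 3 they were 13, 20 and 199, and with the muscle covariate 3. The count of 9 wider genes called higher was 0 without mutant 1 or control 1 and 1 without mutant 2 or control 2 (Plin5 in both). It was 14 without mutant 3, 10 without control 3 and 0 with the muscle covariate. With that covariate the log2 fold changes of the 9 ran from 0.16 (Pnpla2) to 1.22 (Acsl1), each below its value in the main fit. The count of 3 genes called lower was 0 without mutant 1, mutant 2 or control 1, 1 without control 2 or control 3 (Scd2 in both) and 2 without mutant 3. It was also 0 with the muscle covariate, with log2 fold changes of -2.19 for Scd2, -1.71 for Me1 and -0.54 for Elovl6, and against control 3 alone, with -2.21, -1.35 and -1.39 for the same genes. Among the called genes, exons of Plin4, Cebpb, Fitm2, Agpat3, Gpd1, Acsl1, Me1 and Elovl6 overlap annotated genes on the opposite strand. The overlaps differ in size, from 16 of 7790 exon bases in Agpat3 and 17 of 5777 in Plin4 to 312 of 1504 in Cebpb and 1039 of 10483 in Acsl1. Scd2 contains a microRNA gene on its own strand.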

How the data were processed

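RNA of 3 mutant and 3 control libraries was analysed from 1 table per library, grouped by the labels. The deposited values are FPKM made by the authors, an inference from values that are not whole, column sums that differ and Cufflinks in the notes, since the headers name no unit. The submitters' processing notes list Cufflinks 2.2.1, SAMtools 0.1.19, Bowtie2 2.2.3, TopHat2 2.0.13 and mm10. Full-length cDNA was made by SMART-Seq HT with Nextera libraries, per the labels' protocols.

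The 18715 genes that reached 1 FPKM in 3 or more libraries were tested on log2(FPKM + 1), which understates changes of low genes, with limma 3.58.1 in R 4.3.3 (limma-trend, robust moderation, group only) and Benjamini-Hochberg adjustment at 0.05. The genes and lists were chosen with earlier results of these data known. All 10 genes are named, with every called gene and the 2 smallest p of each wider list. Other genes were named after their values were seen. Cavin1 and Gpat4 were found under the older symbols Ptrf and Agpat6, and Hbb-bt and Ahsp were not found.

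Absolute depth is unknown. Ratios of values below 3 FPKM gave scaling totals relative to control 1 of 0.998, 1.20 and 1.05 for mutants 1, 2 and 3 and 0.993 and 1.33 for controls 2 and 3. Whole fragments are the smallest numbers, up to 600, that match all libraries within 0.02 of a fragment, a tolerance set after the values were seen, and multiples of them cannot be told apart. Both procedures were tested on simulated data. Positions are from GENCODE M21. Alternatives were 17 settings of scaling, filter, pseudocount, moderation, weights, block, covariates and libraries left out.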

Additional observations from a re-analysis of the deposited data

How the results depend on the processing

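The count of 1 gene called higher among the 10 became 0 without a filter, with a filter at 5 FPKM (where Plin4 was not tested), with a pseudocount of 0.1, with the replicate number as a block, with the muscle or the Xist covariate and with the controls of high Xist left out, and ranged from 0 to 2 with 1 library left out. No setting called a gene of the 10 lower. The 9 wider genes called higher became 14 after quantile normalization, 3 without a filter, 5 with a pseudocount of 0.1, 5 with moderation that was not robust, and 0 with the replicate block, either covariate or the controls of high Xist left out, in a range from 0 to 14 with 1 library left out. The 3 called lower became 1 without a filter, with a pseudocount of 0.1 or without robust moderation, 0 with the block, either covariate or those controls left out, and 0 to 2 with 1 library left out. With the Xist covariate their log2 fold changes were -2.19 for Scd2, -1.35 for Me1 and -1.40 for Elovl6, and an adjusted p that misses the threshold there does not show that these genes depend on muscle or sex. Over all genes 3 were called with the muscle covariate and 2 with the Xist covariate, against 232 in the main fit. The causes were not tested. Signs turned with the muscle covariate for Adipoq (-0.98), Fabp4 (-0.93), Lipe (-1.21), Plin1 (-1.63) and Plin2 (-0.14), with the Xist covariate for Adipoq (-0.50), Cfd (-0.42) and Plin1 (-0.40), and against control 3 alone for Adipoq (-0.65), Cfd (-0.65) and Plin1 (-0.47). The log2 fold change of Plin4 stayed positive in the 16 settings that tested it, from 0.60 to 3.65, with adjusted p from 0.0245 to 0.95. Same-numbered libraries did not deviate together (correlations across genes of 0.0063, -0.016 and -0.0091), and 1 of the 3 mutants correlated best with its own number, so they share only a number, and the block lowered all calls to 2 genes. Few fragments limit Adipoq, Cfd, Cidec and Cebpa most.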

Other observations

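Genes of brown and beige adipocytes gave 0 calls among 8 tested by limma, with 4 at an unadjusted p below 0.05, against 14.1% of all genes tested. Cox8b and Cox7a1, respiratory chain subunits of brown fat, heart and muscle, averaged 1212 ± 538 and 763 ± 346 FPKM in mutants and 198 ± 133 and 193 ± 100 FPKM in controls (SD, n = 3 each), with limma adjusted p of 0.0521 and 0.0646. Ucp1, the uncoupling protein that defines brown fat and was chosen after its values were seen, measured 6.31, 5.65 and 0.46 FPKM in mutants and 1.94, 5.36 and 5.82 FPKM in controls, under the background level in all 6 libraries.

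Progenitors of fat and marrow stroma were also listed. Of 9 such genes 0 were called by limma, 4 had an unadjusted p below 0.05 and all 9 had a positive log2 fold change, with a median of 0.39. Among all genes tested 14.1% had an unadjusted p below 0.05 by limma and 50.1% a positive log2 fold change. The progenitor genes summed to 938 to 1526 FPKM in mutants and 768 to 1098 FPKM in controls. Of 10 tested macrophage genes, relevant to Fabp4 and Plin2, 0 were called and 2 had an unadjusted p below 0.05, with sums of 129.5 to 280.1 FPKM in mutants and 126 to 145 FPKM in controls. Of 9 tested neutrophil and myeloid precursor genes, relevant to Cebpa, 0 were called and 2 had an unadjusted p below 0.05, with sums of 56.4 to 663 FPKM in mutants and 44.6 to 115 FPKM in controls.

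Of the remaining marker lists, 10 of 20 skeletal muscle genes and 3 of 15 endothelial genes were called higher, against 0.775% of all genes tested. Called lower were 5 of 10 chondrocyte genes and 1 of 8 tested pericyte and smooth muscle genes, against 0.465% of all genes tested. None was called by limma among 6 erythroid, 8 osteoblast, 4 Schwann cell and 4 keratinocyte genes tested. Of these, 1, 1, 0 and 0 had an unadjusted p below 0.05, against 14.1% of all genes tested.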
